A study of Mus musculus with 24 samples.

Results

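The mucins and secreted airway defence proteins described here are 9 genes, Muc1, Muc4, Muc5b, Muc5ac, Bpifa1, Bpifb1, Reg3g, Agr2 and Spdef, of 78298 in the expression table. They were taken by gene symbol, each symbol matched 1 row, and all 24 lung libraries were used. The Ensembl identifiers in the table are ENSMUSG00000042784 for Muc1, ENSMUSG00000118672 for Muc4, ENSMUSG00000066108 for Muc5b, ENSMUSG00000037974 for Muc5ac, ENSMUSG00000027483 for Bpifa1, ENSMUSG00000027485 for Bpifb1, ENSMUSG00000030017 for Reg3g, ENSMUSG00000020581 for Agr2 and ENSMUSG00000024215 for Spdef. Of the 9, 8 passed the filter for testing, at least 4 libraries at 1 TPM or above; Muc5ac reached 1 TPM in 1 library. TPM values are divided by transcript length and by the total of the library, so levels may be compared between genes. Agr2 and Spdef are not themselves mucus or defence proteins: Agr2 encodes an endoplasmic reticulum protein needed to make mucins, and Spdef a transcription factor of goblet cells.

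The lungs came from wild type C57BL/6 mice, labelled male and 7 weeks old. The LPS mice (n = 5) drank no extract and received lipopolysaccharide, a bacterial outer membrane component, at 5 mg/kg into the trachea on day 29. The AEAA low-dose, mid-dose and high-dose mice (n = 5 each) received the same challenge after 28 days of aqueous Artemisia argyi extract in drinking water at 0.5, 1 and 1.5 mg/mL. Control mice (n = 4) received saline per the treatment protocol, although their sample records list the LPS challenge; no group received extract without LPS. Lungs were taken 8 h after the challenge, and RNA depleted of ribosomal RNA was sequenced from whole tissue.

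Airway mucus is a gel of secreted mucins, chiefly Muc5b and Muc5ac, which lies over a brush of membrane-bound mucins that includes Muc1 and Muc4. Club and goblet cells secrete the gel-forming mucins together with antimicrobial and lipid-binding proteins. Bpifa1 and Bpifb1 encode secreted proteins related to the bactericidal/permeability-increasing protein, and Reg3g encodes a lectin that kills Gram-positive bacteria.

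All 24 libraries differed from one another, with 14996 to 16954 genes at 1 TPM or more. Scgb1a1, the main club cell secretory protein, took 3.13% to 6.46% of all TPM in LPS lungs and 2.51% to 8.8% in extract-treated lungs, against 23.2% to 35.5% in Control lungs. On this scale the median log2 fold change over all tested genes was 0.55 in LPS over Control, and it lay between -0.27 and -0.04 for the 3 extract doses over LPS. Changes are therefore also given after each library was divided by its median-of-ratios factor (called scaled below), which brings the first of these medians to 0. Xist was at 25.82 to 95.49 TPM in all 24 libraries and Eif2s3y and Kdm5d at no more than 0.15 TPM, which goes against the label male. Markers of oesophageal squamous epithelium summed to 1035 and 1585 TPM in LPS replicates 1 and 3 and to 1063 TPM in AEAA low-dose replicate 5, against at most 76.8 TPM in the other libraries. All 10 airway cartilage markers together reached at most 7.13 TPM.

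The membrane mucin Muc4 rose over Control in all 4 challenged groups on the deposited scale, in 3 of them when scaled by median of ratios and in 1, the mid dose, when scaled by the upper quartile, while none of the secreted genes was called in LPS over Control. Of the 8 tested genes, 2 were called higher and 0 lower in LPS over Control at an adjusted p of 0.05 or less (limma, Benjamini-Hochberg over 17823 genes), where 58% of all tested genes were called, 56.2% higher and 1.86% lower. The members' median log2 fold change was 0.16, against 0.55 over all tested genes. Scaled, 1 of the 8 was called, Muc4, where 27.9% of all genes were called, 13.8% higher and 14.2% lower, and the members' median was -0.48 against 0. A share of members below the background is no result about them, so each gene is described on its own.

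**Figure D1:**
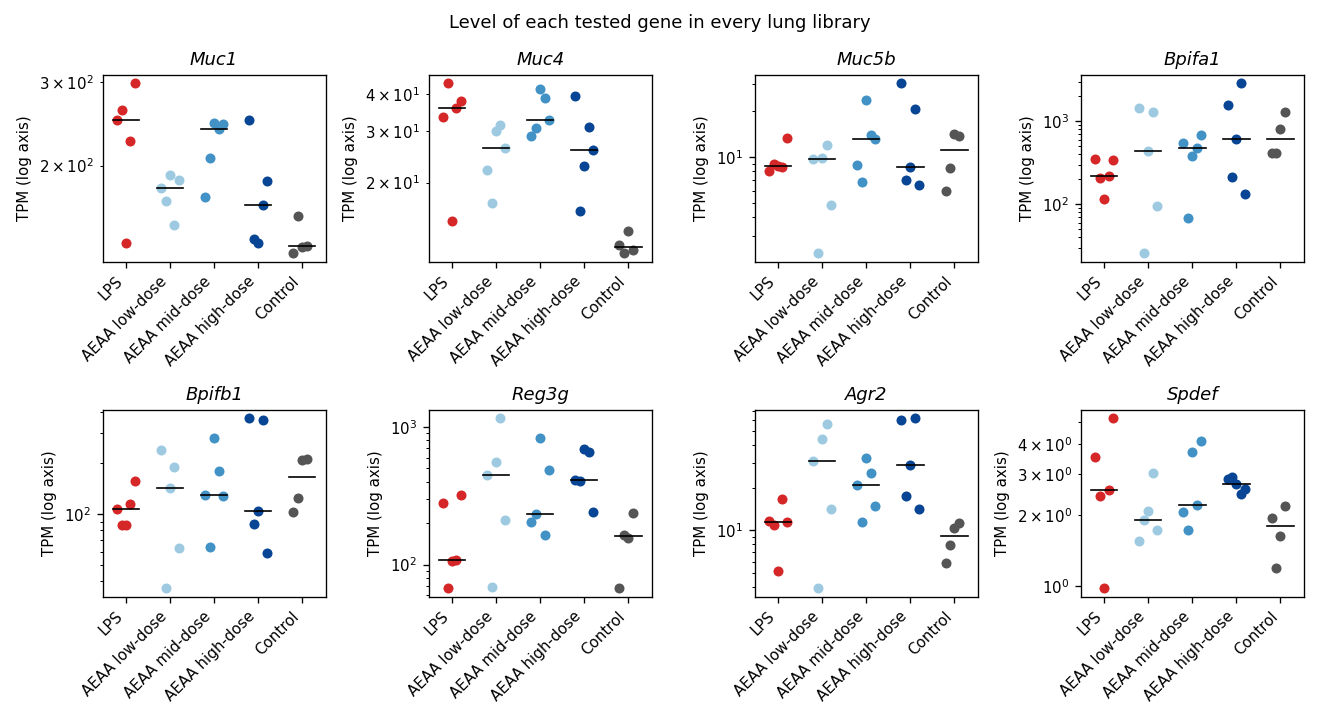
Level of the 8 tested genes in each of the 24 libraries, in TPM on a log axis, with points for libraries and bars for group medians; groups run from LPS through the 3 extract doses to Control. Muc4 sits at 11.46 to 13.62 TPM in the Control lungs, under every challenged lung, whereas Bpifa1 spans 25.63 to 2867.69 TPM.

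Muc4 encodes a large membrane mucin that also binds the receptor ErbB2. It was at 33.38, 43.58, 14.81, 35.92 and 37.79 TPM in LPS lungs, against 12.24, 11.46, 13.62 and 11.79 TPM in Control lungs. On the deposited scale the ranges did not overlap, as for the 49.7% of all tested genes that lay wholly higher in LPS lungs. LPS replicate 3, one of the libraries with oesophageal markers, was the lowest of its group. Scaled by median of ratios, it stood at 13.21 TPM, below the Control lungs at 14.31 to 18.97 TPM, so the ranges overlapped. Muc4 rose in LPS over Control by a log2 fold change of 1.28 ± 0.25 (SE, adjusted p = 0.000167, limma), and its adjusted p stayed between 3.46e-06 and 0.000734 when each library was left out in turn. Scaled by median of ratios the log2 fold change was 0.65 (adjusted p = 0.0403), and scaled by the upper quartile it was 0.58 (adjusted p = 0.0801), so the call depends on how libraries are put on 1 scale. Without the 3 libraries with oesophageal markers it was 1.59 (adjusted p = 1.68e-05).

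With extract before LPS, Muc4 was at 22.01, 17, 29.9, 31.5 and 26.25 TPM in AEAA low-dose lungs. It was at 28.82, 30.6, 41.64, 38.97 and 32.78 TPM in AEAA mid-dose lungs and at 39.49, 15.99, 22.8, 30.91 and 25.85 TPM in AEAA high-dose lungs. On the deposited scale all 15 values were above all Control values and within the range of the LPS lungs. From low to high dose, Muc4 rose over Control by 0.96 (adjusted p = 0.00357), 1.41 (adjusted p = 6.64e-05) and 1.02 log2 units (adjusted p = 0.0029). On the deposited scale, groups lay apart with the extract-treated lungs higher for 41.6%, 50.1% and 29.5% of all tested genes. Scaled, AEAA low-dose replicate 2 (17.98 TPM) and AEAA high-dose replicate 2 (17.79 TPM) fell within the Control range of 14.31 to 18.97 TPM. The mid-dose lungs stayed above it, at 25.63 TPM or more, as for 16.2% of all tested genes. Scaled, the mid and high doses kept the call (0.82, adjusted p = 0.0117, and 0.69, adjusted p = 0.0417) and the low dose lost it (0.54, adjusted p = 0.0817). The high dose also lost it with upper-quartile scaling (0.59, adjusted p = 0.0835) and with Scgb1a1 removed (0.67, adjusted p = 0.0778). Against LPS the log2 fold change of Muc4 was -0.32 (95% interval -0.82 to 0.17), 0.13 (-0.37 to 0.62) and -0.26 (-0.76 to 0.23) from low to high dose, and none was called.

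Muc1, a smaller membrane mucin with a signalling tail, was at 249.35, 261.67, 137.24, 225.99 and 298.69 TPM in LPS lungs, against 130.34, 156.71, 134.75 and 134.94 TPM in Control lungs. LPS replicate 3 alone fell within the Control range. Muc1 rose by a log2 fold change of 0.71 ± 0.19 on the deposited scale (adjusted p = 0.00246), but the scaled value was 0.04 (adjusted p = 0.876). The ratio of the 2 genes within a library does not depend on the scaling: Muc4 stood at 10.8% to 16.7% of Muc1 in LPS lungs, against 7.31% to 10.1% in Control lungs. In extract-treated lungs the share was 10.1% to 21%, 13.4% to 16.9% and 11.4% to 18.8% from low to high dose.

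With extract, Muc1 lay at 149.81 to 191.48 TPM in AEAA low-dose, 171.77 to 245.94 TPM in AEAA mid-dose and 136.93 to 249.71 TPM in AEAA high-dose lungs, against 137.24 to 298.69 TPM in LPS lungs. The log2 fold change over LPS was -0.38 at the low dose (adjusted p = 0.152) and -0.41 at the high dose (adjusted p = 0.0857). Without LPS replicate 3 these became -0.56 (adjusted p = 0.0336) and -0.59 (adjusted p = 0.00956), and without AEAA high-dose replicate 1 the high-dose value was -0.54 (adjusted p = 0.0152). Without the 3 libraries with oesophageal markers the low and high doses gave -0.60 each (adjusted p = 0.0472 and 0.0149), and LPS over Control gave 0.90 (adjusted p = 0.000264). Scaled, with all libraries, they were -0.15 (adjusted p = 0.682) and -0.09 (adjusted p = 0.787). Over Control, Muc1 was called at the mid dose only, with 0.66 (adjusted p = 0.00446), and the scaled value there was 0.04 (adjusted p = 0.861). When only the compared groups entered the fit, Muc1 was called at the low dose over Control too (0.33, adjusted p = 0.0152).

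Muc5b, the main gel-forming mucin of mouse airways, was at 8.05, 9, 8.74, 8.61 and 13.19 TPM in LPS lungs, against 5.99, 8.43, 14.13 and 13.72 TPM in Control lungs. The groups overlapped, and the log2 fold change was -0.09 (95% interval -0.98 to 0.81). Values in extract-treated lungs ran from 2.32 to 11.95, 6.81 to 23.39 and 6.56 to 30.26 TPM in order of rising dose. No comparison of Muc5b was called. Muc5ac, the gel-forming mucin that goblet cells make in allergic airways, lay at 0.19 to 0.92 TPM in 23 libraries and at 2.4 TPM in AEAA mid-dose replicate 3, and tested without the filter its log2 fold change in LPS over Control was 0.06 (adjusted p = 0.948).

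Bpifa1, a surfactant-like protein of the airway lining (SPLUNC1), was at 353.63, 208.13, 117.17, 221.51 and 345.36 TPM in LPS lungs, against 418.75, 417.45, 806.89 and 1311.11 TPM in Control lungs. Every LPS lung was below every Control lung, which held for 1.48% of all tested genes on the deposited scale. Scaled, the groups stayed apart (at most 326.6 TPM in LPS and at least 521.3 TPM in Control lungs), as for 13.5% of all tested genes. The log2 fold change of -1.50 ± 1.02 (SE) was not called when all groups shared one spread (adjusted p = 0.218), nor after scaling (-2.17, adjusted p = 0.103). In a fit to the LPS and Control libraries alone the same change was called (adjusted p = 0.0138). In whole tissue, fewer cells of a type and less RNA per cell cannot be told apart. Of 10 club cell markers 6 fell and 0 rose in the same lungs, where 1.86% of all tested genes were called lower and 56.2% higher. These markers summed to 35300 to 70300 TPM in LPS lungs, against 242000 to 368000 TPM in Control lungs. Most of the sum was Scgb1a1, with means of 48800 TPM in LPS and 282000 TPM in Control lungs. The part of the club cell markers in the Bpifa1 values was not tested.

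In extract-treated lungs Bpifa1 took its most extreme values. AEAA low-dose lungs had 1449.99, 25.63, 434.12, 1282.5 and 94.55 TPM. AEAA mid-dose lungs had 544.5, 69.31, 380.25, 476.02 and 681.57 TPM, and AEAA high-dose lungs had 1578.28, 214.88, 609.38, 2867.69 and 134.02 TPM. The low and mid doses held lungs both above and below the whole LPS range. Lungs of 1 group differed by up to 56.6-fold, 9.83-fold and 21.4-fold from low to high dose, against 3.02-fold among LPS lungs and 3.14-fold among Control lungs. The log2 fold change over LPS was 0.32, 0.56 and 1.38 from low to high dose, with a 95% interval of -0.63 to 3.38 at the high dose (adjusted p = 0.294). The highest Bpifa1 values at the high and low doses came from lungs with little Cxcl2, a cytokine gene induced by LPS. AEAA high-dose replicates 1 and 4 had 0.44 and 0.37 TPM of Cxcl2, and AEAA low-dose replicate 1 had 0.64 TPM. The highest mid-dose and LPS lungs, replicates 5 and 1, had Cxcl2 at 251.88 and 261.51 TPM. The part of Cxcl2 in the Bpifa1 values was not tested.

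Bpifb1 encodes the longer, mucus-associated relative of Bpifa1 (LPLUNC1). It was at 106.95, 85.74, 86.44, 114.65 and 156.13 TPM in LPS lungs, against 103.29, 124.76, 206.84 and 210.58 TPM in Control lungs. The ranges overlapped, and the log2 fold change was -0.52 (adjusted p = 0.447), or -1.18 after scaling (adjusted p = 0.0933). Bpifa1 was 1.36 to 3.31 times Bpifb1 in LPS lungs, against 3.35 to 6.23 times in Control lungs, so the pair did not keep a fixed proportion. Extract-treated lungs ranged from 36.48 to 236.9 TPM, 63.88 to 280.19 TPM and 58.65 to 367.36 TPM from low to high dose, and Bpifb1 was called in no comparison.

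Reg3g was at 280.99, 67.36, 107.02, 108.69 and 320.03 TPM in LPS lungs and at 444.84, 68.51, 559.27, 1161.25 and 212.53 TPM in AEAA low-dose lungs. It was at 203.67, 235.14, 826.66, 163.63 and 483.84 TPM in AEAA mid-dose lungs and at 411.5, 406.43, 688.46, 658.62 and 242.52 TPM in AEAA high-dose lungs. Control lungs had 67.3, 163.98, 156.53 and 239.15 TPM, overlapping the LPS lungs and below every high-dose lung, as for 29.5% of all tested genes. Scaled, the high-dose and Control lungs overlapped, with AEAA high-dose replicate 5 at 273.5 TPM and Control replicate 4 at 311.7 TPM. LPS alone gave a log2 fold change over Control of 0.05 (95% interval -1.32 to 1.42), which still allows a change of more than 1 log2 unit either way.

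The log2 fold change of Reg3g over LPS was 1.18, 1.09 and 1.60 (SE 0.62 at the high dose) in order of rising dose, and none was called (adjusted p = 0.212, 1 and 0.0594). In fits to the compared groups alone the high dose was called both over LPS (adjusted p = 0.0489) and over Control (adjusted p = 0.0129). Mean levels were 489 ± 422, 383 ± 278 and 482 ± 188 TPM from low to high dose, against 177 ± 115 TPM in LPS lungs (SD, n = 5 each). The high-dose value passed the threshold once LPS replicate 1 was left out (1.83, adjusted p = 0.0414), and likewise for LPS replicate 5 (1.87, adjusted p = 0.0426). Over Control, the high dose gave 1.65 (adjusted p = 0.0519; scaled 1.30, adjusted p = 0.147), and it passed without Control replicate 4 (adjusted p = 0.0471) or AEAA high-dose replicate 5 (adjusted p = 0.0403). At the low dose over Control, leaving out AEAA low-dose replicate 2, the lowest of its group, gave 1.80 (adjusted p = 0.0166), against 1.23 (adjusted p = 0.135) with it.

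Agr2, a protein disulphide isomerase that folds mucins, was at 11.67, 10.99, 5.17, 16.64 and 11.45 TPM in LPS lungs and at 30.68, 3.91, 44.34, 56.29 and 14.28 TPM in AEAA low-dose lungs. It was at 20.86, 11.56, 32.28, 25.33 and 14.8 TPM in AEAA mid-dose lungs and at 60.42, 17.51, 29.03, 62.06 and 14.1 TPM in AEAA high-dose lungs. Control lungs had 5.92, 7.88, 10.41 and 11.37 TPM, below every mid-dose and high-dose lung, as for 50.1% and 29.5% of all tested genes. Scaled, AEAA mid-dose replicate 2 fell to 10.95 TPM, below Control replicate 4 at 14.82 TPM, so the mid dose overlapped Control. The high-dose lungs stayed above Control, at 15.9 TPM or more, as for 7.64% of all tested genes. LPS and Control lungs overlapped, with a log2 fold change of 0.26 (95% interval -0.91 to 1.43).

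Agr2 was the 1 of 8 tested members that rose in AEAA high-dose over LPS lungs, where 27.6% of all tested genes were called and 2.05% were called higher. Its log2 fold change was 1.46 ± 0.53 (SE, adjusted p = 0.0448), with means of 36.6 ± 23.1 TPM in AEAA high-dose lungs and 11.2 ± 4.07 TPM in LPS lungs (SD, n = 5 each). The highest values, 60.42 and 62.06 TPM, came from AEAA high-dose replicates 1 and 4, against 14.1 to 29.03 TPM in the other high-dose lungs. Replicates 1 and 4 were also the high-dose lungs with little Cxcl2 (0.44 and 0.37 TPM) and Tnf (1.21 and 0.47 TPM), cytokine genes induced by LPS, which the other high-dose lungs had at 178.78 to 333.56 and 53.31 to 64.46 TPM. In the other challenged groups, the highest Agr2 came from lungs with both high and low Cxcl2. It was 56.29 TPM in AEAA low-dose replicate 4 and 32.28 TPM in AEAA mid-dose replicate 3, with Cxcl2 at 283.31 and 149.55 TPM. Among LPS lungs it was 16.64 TPM in replicate 4, with Cxcl2 at 0.09 TPM. The part of the Cxcl2 and Tnf split in the Agr2 values was not tested. Scaled, the change was 1.75 ± 0.50 (adjusted p = 0.0318), where 8.94% of genes were called and 5.67% were called higher. The call was not stable: it was lost in 8 of 10 fits that left out 1 library (adjusted p 0.0345 to 0.109), namely without any 1 of the 5 LPS lungs or of AEAA high-dose replicates 1, 3 and 4. The separate values were 0.0558, 0.0712, 0.106, 0.0505 and 0.0648 without LPS replicates 1 to 5, and 0.0906, 0.0709 and 0.109 without those high-dose replicates. Without the 3 libraries with oesophageal markers the log2 fold change was 1.20 (adjusted p = 0.154), and a test with no filter on low genes gave an adjusted p of 0.106. The fit to the compared groups alone also ended the call (1.46, adjusted p = 0.056).

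Against Control, Agr2 rose at the high dose by 1.72 ± 0.56 on the log2 scale (SE, adjusted p = 0.0192), and after scaling the value was 1.41 (adjusted p = 0.0643). Without Control replicate 1 the value was 1.56 (adjusted p = 0.064). The low dose gave 1.24 (adjusted p = 0.0769) and the mid dose 1.10 (adjusted p = 0.104, or 0.00774 in a fit to the compared groups alone), and without AEAA low-dose replicate 2 the low-dose value was 1.79 (adjusted p = 0.00354). Muc4 and Agr2 were thus the 2 of 8 members called at the high dose over Control, where 39% of all tested genes were called. In AEAA low-dose over Control Muc4 was the 1 called, against 46.4% of genes, and in AEAA mid-dose over Control Muc1 and Muc4 were the 2 called, against 54.8%. Scaled, 0, 1 and 1 members were called from low to high dose, against 25.7%, 28.3% and 18.5% of genes. The comparisons with Control share its 4 libraries.

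Spdef, the factor that drives goblet cell genes such as Agr2, was low throughout. It lay at 0.98 to 5.17 TPM in LPS lungs, 1.56 to 3.01 TPM in AEAA low-dose, 1.73 to 4.14 TPM in AEAA mid-dose and 2.46 to 2.9 TPM in AEAA high-dose lungs, against 1.19 to 2.18 TPM in Control lungs. The high-dose lungs were all above the Control lungs, as for 29.5% of all tested genes. Scaled, these ranges overlapped, with AEAA high-dose replicate 4 at 2.581 TPM and Control replicate 1 at 3.022 TPM. The high-dose log2 fold change over Control of 0.45 was not called (adjusted p = 0.155), but in a fit to the compared groups alone it was (adjusted p = 0.0411). In LPS over Control it was 0.44 (adjusted p = 0.126; scaled -0.02), and 0.66 without LPS replicate 3 (adjusted p = 0.0105). Without the 3 libraries with oesophageal markers it was 0.64 (adjusted p = 0.028). Levels near 1 to 5 TPM with a pseudocount of 1 understate fold changes.

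**Figure D2:**
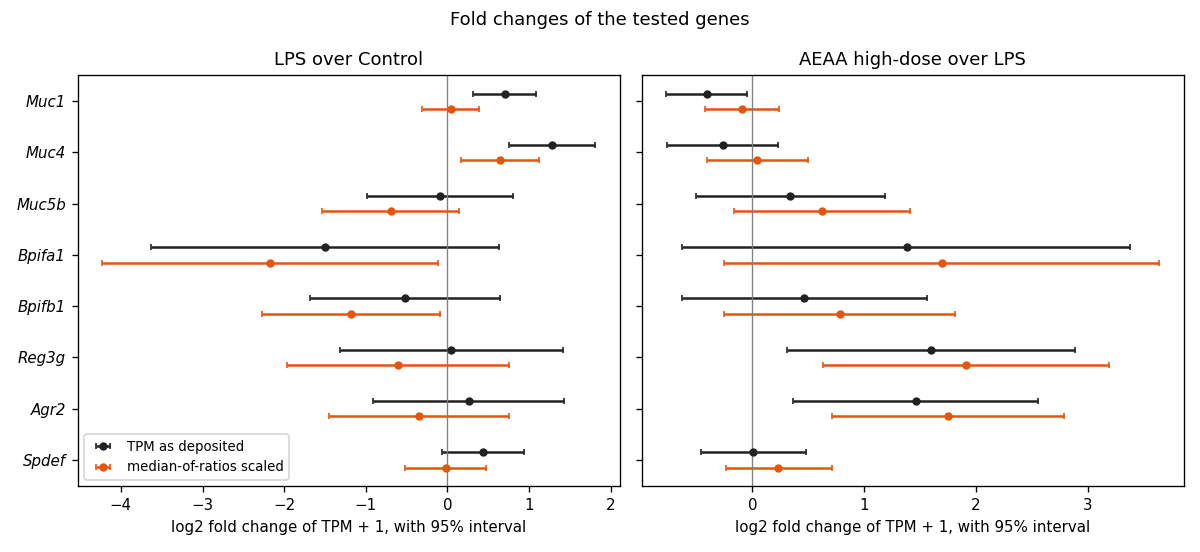
Log2 fold change of TPM + 1 with its 95% interval for the 8 tested genes, in LPS over Control (left) and AEAA high-dose over LPS (right), on the deposited scale (black) and after median-of-ratios scaling (orange). Muc4 lies right of 0 on both scales in the left panel (1.28 and 0.65), Agr2 on both scales in the right panel (1.46 and 1.75), and the Bpifa1 intervals are the widest.

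Over the 4 challenged groups, 0 of 8 members had a called slope with extract dose, where 8.4% of all tested genes did (scaled, 0 members and 1.64%). Agr2 had a slope of 0.85 ± 0.34 and Reg3g of 0.94 ± 0.39 log2 units per mg/mL (SE; adjusted p = 0.103 and 0.12, limma). These were the 2 members with an unadjusted p below 0.05, which 5144 of 17823 genes had. At the low dose 0 of 8 members were called against LPS, where 10.6% of genes were (scaled, 0 and 2.29%). There 1 member, Muc1, had an unadjusted p below 0.05, which 5225 genes had. At the mid dose 0 of 8 were called and the background was 0% on both scales, with 0 members and 625 genes at an unadjusted p below 0.05. The comparisons with LPS share its 5 libraries.

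The secreted genes and Agr2 varied together from lung to lung. Within groups, Bpifa1 had a mean coefficient of variation of 71.8%, above 92.5% of all tested genes, followed by Reg3g with 61.6%, Bpifb1 with 50.7%, Agr2 with 47.7% and Muc5b with 46.4%. Muc4 and Muc1 had 22.5% and 16.9%, near and below the middle of all genes. To see which genes varied together, each library's deviation from its group mean (scaled, log2) was correlated between genes over 24 libraries, with a two-sided test of 100000 permutations within groups and adjustment over the 28 pairs. All 28 correlations were positive, and 14 had an adjusted p of 0.05 or less by both Pearson's r and Spearman's rho. The share of such pairs among all tested genes was not computed. The count therefore does not show a trait particular to these genes.

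The strongest pair was Muc5b with Bpifb1 (r = 0.94, rho = 0.92, adjusted p = 0.00014 by permutation), and r was 0.93 without the 2 libraries farthest from the median of Muc5b. Bpifa1 with Bpifb1 had r = 0.90 and rho = 0.87 (adjusted permutation p = 0.000187), and 0.86 without the 2 farthest libraries. Agr2 had r = 0.87 with Bpifb1, 0.86 with Bpifa1 and 0.84 with Muc5b. Reg3g had r of 0.64 to 0.68 with these 4 genes, and with Agr2 it was 0.43 once AEAA low-dose replicates 2 and 4 were left out. The smallest p that the permutations can give is 1e-05, reached by Muc5b with Bpifb1 and by Bpifb1 with Agr2.

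Muc1 stood outside this set, with r of 0.01 to 0.19 to Muc5b, Bpifa1, Bpifb1, Reg3g and Agr2. With Muc4 it had r = 0.69 (rho = 0.54, adjusted permutation p = 0.0143), which was 0.49 without LPS replicates 3 and 5. Muc4 itself had r = 0.61 with Agr2 and 0.50 with Muc5b (adjusted permutation p = 0.00822 and 0.0254). Reg3g also had r = 0.52 with Spdef (adjusted permutation p = 0.042). With Muc5b, Bpifa1, Bpifb1 and Agr2, Spdef had r of 0.21 to 0.25 (adjusted permutation p of 0.208 to 0.282). The libraries are shared by all pairs, and the amount of airway in each piece of lung was not measured. Among high-dose lungs, Muc5b, Bpifa1, Bpifb1 and Agr2 were all highest in AEAA high-dose replicates 1 and 4, which had little Cxcl2 (0.44 and 0.37 TPM). Among mid-dose lungs, Muc5b, Bpifb1 and Agr2 were highest in AEAA mid-dose replicate 3, with Cxcl2 at 149.55 TPM. The part of Cxcl2 in the co-variation was not tested. Ciliated cell markers summed to 1440 to 2730 TPM in LPS lungs and to 1240 to 2610, 1590 to 2630 and 1240 to 3240 TPM in extract-treated lungs from low to high dose, against 2120 to 2550 TPM in Control lungs, and their part in the co-variation was not tested.

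**Figure D3:**
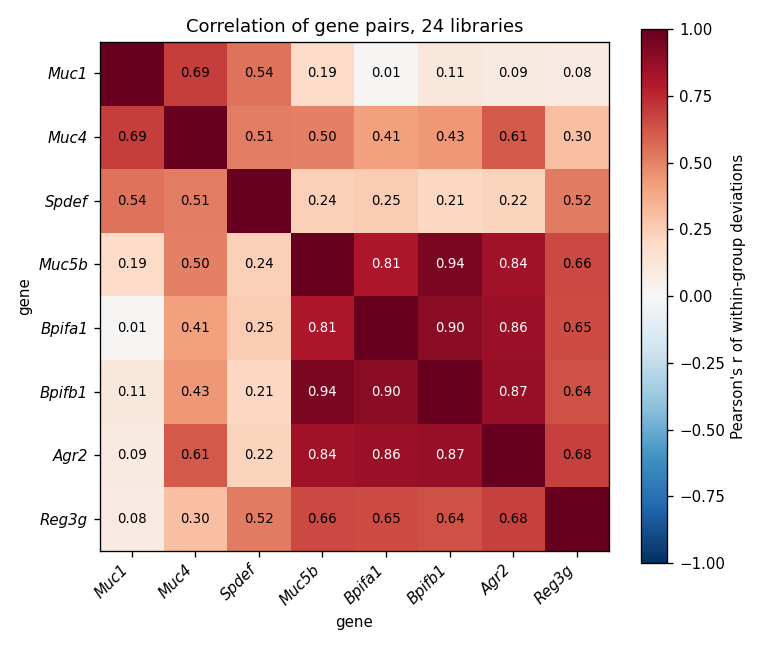
Pearson's r between the within-group deviations of each pair of the 8 tested genes over 24 libraries, from -1 (blue) to 1 (red). Muc5b, Bpifa1, Bpifb1 and Agr2 form a block with r of 0.81 to 0.94, and Muc1 pairs most closely with Muc4, at 0.69.

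**Figure D4:**
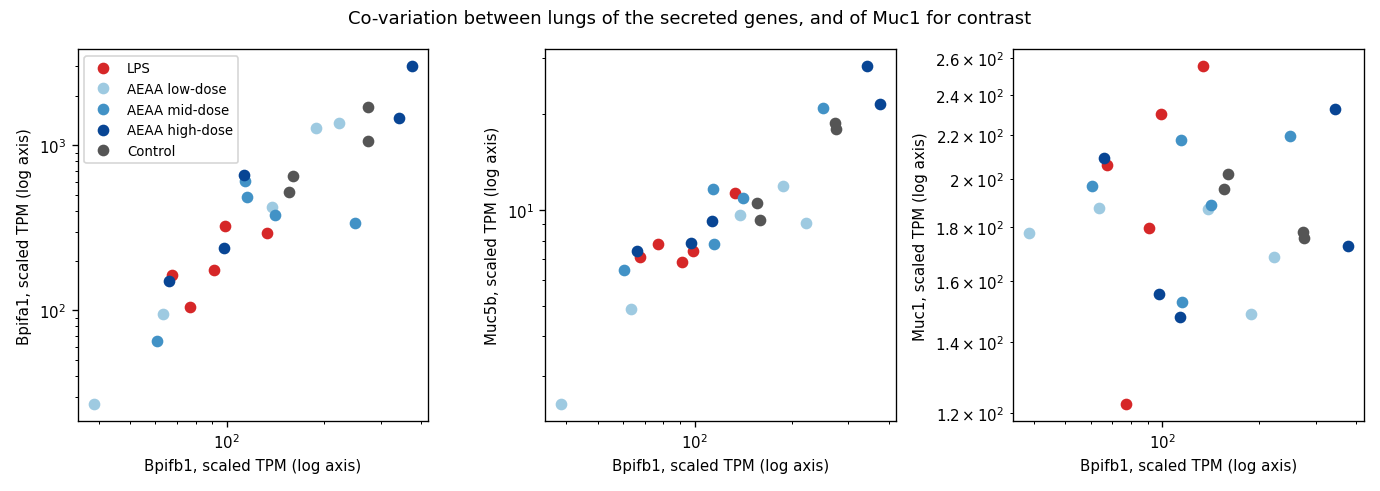
Scaled TPM of Bpifa1, Muc5b and Muc1 (vertical, log axes) against Bpifb1 (horizontal, log axis), 1 point per library coloured by group. Bpifa1 and Muc5b climb with Bpifb1 (within-group r of 0.90 and 0.94), and Muc1 does not (0.11).

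The 250 bases before the starts of Bpifa1, Bpifb1, Reg3g and Agr2 are shown, from RefSeq (GRCm38.p6, an older build than the GRCm39 of the expression table). The table of starts held 7 of the 9 genes, with 2 starts for Bpifb1. Capitals mark every match, on either strand, to TATAAA (the TATA box) or TTCNNNGAA (a STAT site), and no 2 matches overlap.
Bpifa1, chr2:154142630-154142879, plus strand: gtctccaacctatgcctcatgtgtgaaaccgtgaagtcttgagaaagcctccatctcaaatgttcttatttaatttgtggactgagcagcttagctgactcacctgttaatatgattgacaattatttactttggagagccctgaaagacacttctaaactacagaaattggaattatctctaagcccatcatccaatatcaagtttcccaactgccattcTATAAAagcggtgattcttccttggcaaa
Bpifb1 first start, chr2:154190568-154190817, plus strand: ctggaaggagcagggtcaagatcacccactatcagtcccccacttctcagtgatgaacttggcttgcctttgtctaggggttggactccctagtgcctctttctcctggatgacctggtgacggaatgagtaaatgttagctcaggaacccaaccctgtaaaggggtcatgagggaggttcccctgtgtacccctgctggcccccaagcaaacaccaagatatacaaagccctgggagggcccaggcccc
Bpifb1 second start, chr2:154200130-154200379, plus strand: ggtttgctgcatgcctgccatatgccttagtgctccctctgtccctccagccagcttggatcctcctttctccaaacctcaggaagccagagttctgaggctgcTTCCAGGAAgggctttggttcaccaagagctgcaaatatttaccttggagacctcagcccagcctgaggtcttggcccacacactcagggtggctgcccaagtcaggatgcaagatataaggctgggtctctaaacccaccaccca
Reg3g, chr6:78468875-78469124, minus strand: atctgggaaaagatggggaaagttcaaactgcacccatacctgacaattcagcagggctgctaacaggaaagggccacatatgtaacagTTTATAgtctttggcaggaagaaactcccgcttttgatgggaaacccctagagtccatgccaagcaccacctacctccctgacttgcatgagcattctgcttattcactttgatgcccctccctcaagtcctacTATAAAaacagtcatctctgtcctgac
Agr2, chr12:35992675-35992924, plus strand: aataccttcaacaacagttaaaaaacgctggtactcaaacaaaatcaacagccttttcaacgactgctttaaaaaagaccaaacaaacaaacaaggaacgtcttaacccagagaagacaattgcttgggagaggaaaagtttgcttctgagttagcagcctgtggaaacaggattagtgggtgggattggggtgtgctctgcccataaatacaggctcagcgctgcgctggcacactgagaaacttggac
TATAAA lies 29 to 24 bases before the start of Bpifa1 and 27 to 22 bases before that of Reg3g, which also has the reverse match TTTATA farther upstream. Muc1 and Muc4 hold it too, so 4 of the 7 genes do, while Bpifb1 (at both starts), Agr2 and Spdef do not. It was found in 12.4% of 32851 windows of the same length, a share per start and not per gene. TTCCAGGAA before the second start of Bpifb1 is the only STAT match among the 7 genes, against 7.02% of all windows. The 7 genes held no match to TTGCNNAA (C/EBP, in 9.56% of windows) or TGTTTAC (FOXA, 3.17%). A match describes letters and not binding. Bpifa1 and Bpifb1 lie on chromosome 2 with 1 gene, Bpifa5, between them, and Muc5ac and Muc5b are neighbours on chromosome 7.

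Reg3g and Bpifa1 did not keep 1 proportion across challenged lungs. Reg3g stood at 0.795, 0.324, 0.913, 0.491 and 0.927 times Bpifa1 in LPS lungs, and at 0.307, 2.67, 1.29, 0.905 and 2.25 times in AEAA low-dose lungs. The ratio was 0.374, 3.39, 2.17, 0.344 and 0.71 in AEAA mid-dose lungs and 0.261, 1.89, 1.13, 0.23 and 1.81 in AEAA high-dose lungs. Control lungs had 0.161, 0.393, 0.194 and 0.182, so Bpifa1 exceeded Reg3g in all 4.

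Cxcl2, a neutrophil chemokine induced by LPS, was uneven among lungs of 1 group. It was at 261.51, 1.37, 45.12, 0.09 and 189.56 TPM in LPS lungs and at 0.64, 266.93, 342.88, 283.31 and 294.38 TPM in AEAA low-dose lungs. It was at 0.52, 454.09, 149.55, 0.4 and 251.88 TPM in AEAA mid-dose lungs and at 0.44, 178.78, 333.56, 0.37 and 313.6 TPM in AEAA high-dose lungs. In each challenged group the lungs at 1.37 TPM or less of Cxcl2 had the lowest ratios of Reg3g to Bpifa1. Control lungs, at 0.06 to 0.27 TPM of Cxcl2, had ratios as low. Cxcl2 fell into separate low and high ranges, so no correlation is given and the relation was not tested. How many other genes or ratios of genes part the same lungs was not counted. The separation is therefore not shown to be particular to Reg3g and Bpifa1.

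**Figure D5:**
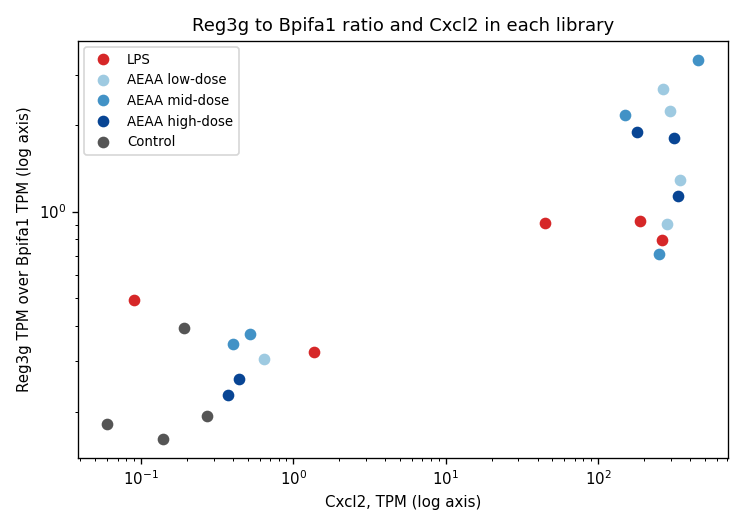
Ratio of Reg3g to Bpifa1 TPM (vertical, log axis) against Cxcl2 TPM (horizontal, log axis), 1 point per library coloured by group. Lungs at 1.37 TPM of Cxcl2 or less lie at ratios of 0.161 to 0.491, and the remaining challenged lungs lie at 0.71 to 3.39.

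Apart from the 9 members themselves and predicted genes, the genes whose scaled levels followed each member most closely over 24 libraries, by Spearman's rho and given as a description, differed between the membrane mucins and the secreted genes. Bpifa1 was most like Slc5a8 (0.95), a monocarboxylate transporter, then Catip (0.85) and Fam3d (0.84). Among these genes Slc5a8 was also in the first 3 for Bpifb1 (0.90, after Tmem158 at 0.91 and before Gp2 at 0.87) and for Muc5b (0.82, after Tmem158 at 0.83 and before Slc27a2 at 0.80). Reg3g was closest to Itln1 (0.88), an intelectin that binds microbial sugars, to Ltf (0.87), which encodes lactoferrin, and to Slc13a2 (0.79). Agr2 was closest to Gramd2b (0.73), Ltf (0.72) and the trefoil peptide gene Tff1 (0.72). Muc1 was closest to another membrane mucin, Muc20 (0.80), then Trpm6 (0.79) and Atp11a (0.76). Muc4 was closest to Nwd1 (0.83), Tmc5 (0.82) and Tacr1 (0.78), and Spdef to Foxred2 (0.78), Mat1a (0.78) and Wrap53 (0.76). Some of these genes were low, with means of 0.605 TPM for Slc5a8, 0.686 for Tff1, 0.99 for Itln1 and 1.15 for Tacr1.

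Other genes of mucus and airway defence were counted in LPS over Control for context, and the counts below stand beside 56.2% of all tested genes higher and 1.86% lower (scaled, 13.8% and 14.2%). Of 11 further mucins in the table, 3 were tested and 2 rose, Muc20 by 0.88 on the log2 scale (adjusted p = 0.000342) and Emcn, an endothelial sialomucin, by 0.58 (adjusted p = 0.00691); scaled, 0 were called. Of 13 further genes of the BPI fold, 3 were tested and 1 rose, Lbp, the LPS-binding protein, by 1.07 (adjusted p = 1.81e-06; scaled 0.42, adjusted p = 0.0343). Of 22 further secreted defence genes 13 were tested, 5 rose and 1 fell, with a median log2 fold change of 0.76 (scaled 0.26, with 1 higher and 3 lower). Lcn2, which withholds bacterial iron carriers, rose by 4.31 (adjusted p = 0.0278), the protease inhibitor Slpi by 2.62 (adjusted p = 0.00666) and Camp, the cathelicidin carried by neutrophils, by 2.45 (adjusted p = 0.00622). Only Camp of these 3 stayed called when scaled. All 10 neutrophil markers rose in the same lungs, and Camp is itself 1 of these 10. Neutrophil markers summed to 585 to 12900 TPM in LPS lungs, against 125 to 196 TPM in Control lungs, and their part in these rises was not tested. Reg3a and Reg3b were listed at 0 in all 24 libraries.

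Of 24 goblet cell and mucus maturation genes 17 were tested, 9 rose and 1 fell, where 56.2% of all tested genes rose and 1.86% fell. Their median was 0.71. Scaled, it was 0.27, with 4 higher and 4 lower, where 13.8% and 14.2% of all tested genes were. The 1 that fell was the trefoil peptide gene Tff2 (-1.05, adjusted p = 0.00651; scaled -1.71, adjusted p = 0.000308). Clca1 (-2.09, adjusted p = 0.0392), Fcgbp (-1.1, adjusted p = 0.00208) and Agr3 (-0.78, adjusted p = 0.0209) were lower only when scaled. Creb3l1 and Bhlha15, transcription factors of secretory cells, rose by 1.65 (adjusted p = 1.14e-05) and 1.29 (adjusted p = 3.3e-06), and the protease inhibitor Spink5 by 1.41 (adjusted p = 0.000125); all 3 stayed called when scaled. Of 23 cytokines, receptors and mediators known to act on mucin genes 16 were tested, 12 rose and 0 fell, beside the same shares of all genes. Their median was 1.38 (scaled 0.80, with 6 higher and 0 lower). Il1b rose by 4.13 (adjusted p = 0.0191), Il4ra, a receptor chain for interleukins that drive goblet cells, by 1.96 (adjusted p = 5.94e-05) and Il17ra by 1.72 (adjusted p = 0.000185). Il1b lost its call when scaled (adjusted p = 0.0798).

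In AEAA high-dose over LPS lungs 2.05% of all tested genes were called higher and 25.5% lower (scaled, 5.67% and 3.27%). Of the 13 tested secreted defence genes 0 were called, and scaled 1 rose; of the 17 goblet cell genes 0 rose and 3 fell, and scaled 1 rose and 0 fell. Of the 3 tested mucins and the 3 tested BPI-fold genes 1 each fell, Emcn and Lbp, and scaled neither was called. Of the 16 upstream genes 5 fell, and scaled 1 did. The club cell marker Scgb3a1, a secretoglobin, rose by 1.52 (adjusted p = 0.0153; scaled 1.83, adjusted p = 0.0113), 1 of 10 club cell markers called.

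Marker lists of other cell types in LPS over Control were as follows on the deposited scale, where again 56.2% of all tested genes were called higher and 1.86% lower. Of 10 club cell markers 6 fell, led by Scgb1a1 (-2.56), Scgb3a2 (-2.54) and Scgb3a1 (-2.19), with the same count when scaled. Of 10 ciliated cell markers Tubb4b rose (0.82) and Tmem212 (-1.07) and Dynlrb2 (-0.92) fell, and scaled 0 rose and 6 fell. All 10 neutrophil markers rose, led by Ngp (4.27), S100a9 (4.04) and S100a8 (3.88), and 8 did when scaled. Of 6 tested basal cell markers 3 rose, Krt15 (2.08), Aqp3 (1.22) and Col17a1 (0.93), and scaled none did. Of 10 alveolar type II markers 4 rose, led by Abca3 (1.39), Slc34a2 (0.97) and Lamp3 (0.55), and scaled 1 rose and 2 fell. Of 10 alveolar type I markers 4 rose, led by Pdpn (0.85), Akap5 (0.84) and Clic5 (0.75), and scaled 0 rose and 1 fell. Of 10 pan-epithelial markers 5 rose, led by Cldn4 (2.17), Krt7 (1.26) and Elf3 (1.24), and 2 when scaled. Of 4 tested oesophageal markers Krt13 (4.04) and Sprr1a (3.46) rose, and 1 did when scaled. The single tested cartilage marker, Col11a2, was not called (0.07).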

How the data were processed

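Whole-lung RNA from 24 mice was measured as 1 table of TPM values for 78298 genes. Per the submitters' processing notes, the authors used HISAT2, StringTie, RSEM and DESeq2 with build GRCm39; versions and settings are not given in the sources used here. The deposited TPM values have the same sum in every library and keep no counts, so the depth and counting error are unknown. The table holds 0 sample columns beyond the 24. Labels gave the groups and call the replicates biological.

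All 24 libraries entered 1 fit of log2(TPM + 1) with a mean per group, by limma 3.58.1 in R 4.3.3 (trend and robust moderation), on the 17823 genes that reached 1 TPM in 4 libraries or more. Adjustment was Benjamini-Hochberg over these genes for each of 8 comparisons, and a gene was called at an adjusted p of 0.05 or less. The code was tested on simulated data. Alternatives were median-of-ratios and upper-quartile scaling, removal of Scgb1a1, no filter, a pseudocount of 0.1, the compared groups alone, a replicate block, each library left out in turn and, chosen after seeing the data, the libraries with oesophageal markers left out. The members and gene lists were chosen with earlier results of these data known. From each list the text names the 3 called genes with the largest change in LPS over Control, and for each member the 3 genes most like it outside the members and predicted genes; other genes were named after their values were seen. Promoters are from RefSeq, GRCm38.p6; a search of them for an NF-kB motif is not reported here.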

Additional observations from a re-analysis of the deposited data

Results flagged for a closer look

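In 45 sets of values (9 genes in 5 groups), 2 libraries stood apart from the rest of their group by Dixon's test; chance alone gives about 1 in 20. Muc5b was at 13.19 TPM in LPS replicate 5, against 8.05 to 9 TPM in the other LPS lungs. Muc5ac was at 2.4 TPM in AEAA mid-dose replicate 3, against 0.37 to 0.66 TPM in the other mid-dose lungs, and this library also had the highest Muc5b of its group, 23.39 TPM.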

How the results depend on the processing

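Of the 8 tested genes, the number called over Control was 2 for LPS, 1 for the low, 2 for the mid and 2 for the high dose as reported. It was 1, 0, 1 and 1 with median-of-ratios scaling, 0, 0, 1 and 0 with upper-quartile scaling, and 1, 0, 1 and 0 without Scgb1a1. Fits of the compared groups alone called 2 at the low and 4 at the high dose over Control; they added Bpifa1 in LPS over Control, Muc1 at the low dose, Agr2 at the mid dose, and Reg3g and Spdef at the high dose over Control. Over LPS at the high dose their count stayed at 1, but Reg3g was called (1.60, adjusted p = 0.0489) and Agr2 was not (1.46, adjusted p = 0.056). Over LPS, the high-dose count of 1 became 0 with no filter, and the low-dose count of 0 became 1 without the libraries with oesophageal markers (Muc1, -0.60, adjusted p = 0.0472, limma); that setting also ended the Agr2 call at the high dose (1.20, adjusted p = 0.154). Leaving out each library gave 1 to 3 members for the low dose and 1 to 3 for the high dose over Control, 0 to 1 for the low and high doses over LPS, and 2 to 3 for LPS over Control. Shares of all tested genes called are given here only for the fits as reported and with median-of-ratios scaling. Member counts and added calls of the other fits therefore have no background to be read against. Over all genes, LPS over Control called 10344 as reported and 4978 scaled (10013 and 2455 higher); the low, mid and high doses over Control 8268, 9769 and 6957, scaled 4583, 5049 and 3300 (higher 7905, 9507 and 6687, scaled 2337, 2533 and 1679). The low and high doses over LPS called 1892 and 4919, scaled 408 and 1594 (higher 220 and 366, scaled 310 and 1011), and the trend 1498, scaled 292. The cause of these changes was not tested, and depth, being unknown, limits what low genes such as Muc5ac and Spdef can show.

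Changes of sign touched uncalled values, and Muc1. With median-of-ratios scaling, LPS over Control gave -0.61 for Reg3g, -0.35 for Agr2 and -0.02 for Spdef; the mid dose over LPS 0 for Muc1 and 0.02 for Spdef; the high dose over LPS 0.04 for Muc4; the low dose over Control -0.11 for Muc1 and -0.14 for Spdef; the mid dose -0.31 for Muc5b; the high dose -0.05 for Muc1 and -0.07 for Muc5b; and the trend 0.08 for Muc4. With upper-quartile scaling the values were, in LPS over Control, -0.03 for Muc1, -0.69 for Reg3g, -0.41 for Agr2 and -0.07 for Spdef; over LPS, 0.02 for Spdef at the mid and 0.02 for Muc4 at the high dose; over Control, -0.20 for Muc1 and Spdef at the low dose, -0.04 for Muc1, -0.39 for Muc5b and -0.05 for Spdef at the mid dose, and -0.15 for Muc1 and -0.16 for Muc5b at the high dose; and 0.07 for Muc4 in the trend. Without Scgb1a1, LPS over Control gave -0.35 for Reg3g and -0.11 for Agr2, and over Control the low dose gave -0.05 for Muc1 and -0.10 for Spdef, the mid dose -0.12 for Muc5b and the high dose -0.08 for Muc1 and -0.09 for Muc5b. A pseudocount of 0.1 gave 0.02 for Spdef at the mid dose over LPS. Without the libraries with oesophageal markers, LPS over Control gave 0.01 for Muc5b and -0.10 for Reg3g, the mid dose over LPS -0.18 for Muc4, the high dose over LPS -0.19 for Spdef and the trend -0.07 for Spdef. Leaving out 1 library moved Muc5b from -0.30 to 0.07 and Reg3g from -0.31 to 0.33 in LPS over Control; over Control, Bpifb1 from -0.39 to 0.14 at the mid dose, and Muc5b from -0.06 to 0.45, Bpifa1 from -0.68 to 0.42 and Bpifb1 from -0.38 to 0.28 at the high dose; over LPS, Bpifa1 from -0.26 to 1.18 and Bpifb1 from -0.27 to 0.40 at the low dose, Muc1 from -0.23 to 0.05, Muc4 from -0.13 to 0.25 and Spdef from -0.23 to 0.18 at the mid dose, and Spdef from -0.21 to 0.20 at the high dose; and in the trend Muc4 from -0.22 to 0.03 and Spdef from -0.07 to 0.17.

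The labels do not say that a replicate number marks a shared litter or batch, and correlations between libraries cannot tell weak pairing from none. Same-numbered libraries of different groups had correlations of -0.45 to 0.64 (median 0.06, against -0.01 for differently numbered libraries). Of 24 libraries, 8 were most like their own number. With the replicate block, 2 members were called at the low dose over Control (Muc4 and Agr2), and at the high dose over Control Bpifa1 was 0.02 and Bpifb1 0.05; at the mid dose over Control, Agr2 was also called (1.22, adjusted p = 0.0317).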
